A study of Mus musculus with 5 samples.

Results

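Cytokine receptor genes were examined by ChIP-Seq of elongating RNA Polymerase II in mouse Th2 cells differentiated in culture. The 10 genes were *Il4ra*, *Il2ra*, *Il2rb*, *Il2rg*, *Il7r*, *Il21r*, *Il1rl1*, *Il18r1*, *Il18rap* and *Il12rb1*, chosen by name from the 11608 genes of the deposited gene table. A line was accepted only where its coordinates fit the mm9 locus of the gene, and each of the 10 had such a line. Naive CD4+ T cells from spleens of C57BL6 mice were activated over 3 days in 10 ng/ml of IL-4, which drives Th2 differentiation, with a blocking antibody to IFN-γ, and expanded for a further 4 days in IL-2 and IL-4. The groups were *Parp14*+/+ cells, *Parp14*+/+ cells with PJ34, *Parp14*-/- cells and *Parp14*-/- cells with PJ34, each with 1 library, and the Input was a mixture of both genotypes. PARP-14 is an ADP-ribosyltransferase and a co-factor of STAT6, the factor that carries the IL-4 signal, and PJ34 is a general inhibitor of this enzyme family. The labels give 10 µM PJ34 and describe its addition to differentiated cells, while the methods of the study give a lower dose, present during culture. The *Parp14*-/- cells came from *Parp14*-/- mice, and how many mice were pooled for a library is not given in the sources used here.

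Receptors for cytokines pair a chain that binds the ligand with chains that carry the signal. IL-4 receptor α, encoded by *Il4ra*, and the receptors for IL-2, IL-7 and IL-21 share the common γ chain, encoded by *Il2rg*, and act through Janus kinases and STAT factors. *Il1rl1* (ST2, the IL-33 receptor), *Il18r1* and *Il18rap* (both chains of the IL-18 receptor) belong to the IL-1 receptor family, act through MyD88 and lie in a row on 1 chromosome. *Il12rb1* encodes a chain shared by the IL-12 and IL-23 receptors, and IL-12 drives the opposing Th1 fate. The antibody recognised the polymerase phosphorylated on serine 2 of its tail, a form that accumulates along transcribed genes toward and past their 3′ end.

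Some sequences under the signal are shown first, because the results return to them. The 250 bases before the transcription start of *Il4ra*, *Il7r* and *Il18rap* were taken from the RefSeq promoter table (GRCm38.p6) and placed on mm9 by exact match. That of *Il4ra* (chr7:132695535-132695784, plus strand) and that of *Il7r* (chr15:9459632-9459881, minus strand) lay under enriched intervals in all 4 libraries. That of *Il18rap* (chr1:40571957-40572206, plus strand) lay under an interval in each library except *Parp14*+/+. No exon is annotated within these stretches. Capitals mark a match, on either strand, to the STAT palindrome of TTC and GAA with 3 bases between (TTCNNNGAA), the spacing most STAT factors bind, or with 4 between, which STAT6 also binds.
*Il4ra* promoter: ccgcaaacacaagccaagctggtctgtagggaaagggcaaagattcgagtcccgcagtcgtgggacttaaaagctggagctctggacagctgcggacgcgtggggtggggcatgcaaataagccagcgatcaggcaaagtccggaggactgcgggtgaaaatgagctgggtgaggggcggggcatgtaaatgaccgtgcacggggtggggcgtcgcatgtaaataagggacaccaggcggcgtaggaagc
*Il7r* promoter: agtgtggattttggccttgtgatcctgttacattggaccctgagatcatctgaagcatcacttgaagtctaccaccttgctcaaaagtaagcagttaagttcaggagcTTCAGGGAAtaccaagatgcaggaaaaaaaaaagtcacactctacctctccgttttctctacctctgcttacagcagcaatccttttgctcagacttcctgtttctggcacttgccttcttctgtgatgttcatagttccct
*Il18rap* promoter: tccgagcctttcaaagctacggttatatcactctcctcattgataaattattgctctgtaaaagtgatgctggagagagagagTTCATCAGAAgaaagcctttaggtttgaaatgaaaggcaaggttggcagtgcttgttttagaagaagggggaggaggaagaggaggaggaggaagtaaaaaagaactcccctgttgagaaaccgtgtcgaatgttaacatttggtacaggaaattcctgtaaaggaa
The promoter table held 8 of the 10 genes, with no entry for *Il2rb* and *Il12rb1*. In a window of 300 bases around the start, the spacing of 3 was found at *Il7r* (TTCAGGGAA, from -142 to -134 relative to the start) and at 1 of the starts of *Il18r1*, with 2 matches (TTCTGGGAA and TTCCCAGAA), thus in 2 of 8 genes, against 8.30% of 32851 promoters. The spacing of 4 was found in *Il18rap* (TTCATCAGAA) and at other starts of *Il18r1* (TTCTTTTGAA), again 2 of 8 genes, against 6.95% of all promoters. The letters AGATAA, which GATA factors bind, were found in *Il1rl1* alone, against 11.2% of all promoters. A gene was counted where any of its starts matched, and *Il18r1* and *Il1rl1* had more than 1 start, while the shares count single promoters. The counts and the shares are therefore not alike in unit. These matches are a description of letters. The next stretches span the highest points of the signal at *Il4ra* in all 4 libraries (chr7:132723712-132723840, 129 bases of intergenic sequence past the 3′ end) and at *Il7r* in 3 libraries (chr15:9458304-9458416, minus strand, 113 bases within an intron near the start), read from NCBIM37, the assembly of mm9.
*Il4ra* highest points: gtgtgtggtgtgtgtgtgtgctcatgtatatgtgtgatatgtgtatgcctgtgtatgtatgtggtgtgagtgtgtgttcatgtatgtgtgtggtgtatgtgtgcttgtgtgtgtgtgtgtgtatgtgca
*Il7r* highest points: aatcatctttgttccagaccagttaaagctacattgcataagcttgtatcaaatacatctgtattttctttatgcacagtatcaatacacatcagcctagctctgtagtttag
The *Il4ra* stretch consists of imperfect TG repeats, and 83.7% of its letters are G or T, against 48.7% of the *Il7r* stretch.

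The deposited value of a gene is its average peak height: the highest pile-up of fragments in each active region of the gene, averaged over those regions. An active region is a union of enriched intervals over all 8 libraries of the table, so it can run over neighbouring genes. The authors equalised the number of alignments between libraries before these heights were formed. SICER called 8841 to 12014 intervals in a library, which covered 98.1 and 82.4 Mb in the *Parp14*+/+ libraries without and with PJ34, and 73.8 and 65.5 Mb in the *Parp14*-/- libraries. At *Parp14* itself they covered 22873 and 20836 bp of the gene, against 2686 and 3286 bp, which is the direction of the labels. Its average peak heights in the same order were 8 and 11, against 6.67 and 6.67. Of fixed marker lists, an interval in at least 1 library was found at 5 of 5 T cell and 4 of 4 Th2 genes that have a line in the table. It was also found at 2 of 2 Th1 genes (*Tbx21* and *Ifng*, with heights of 14 to 28). The count was 0 of 1 for CD8 genes and 1 of 5 for B cell genes (*Cd79a*, with heights of 28 to 38). It was 2 of 3 for myeloid genes (*Csf1r* and *Mpo*, with heights of 5 to 10). The summed height of the 4 Th2 marker genes was 136 and 129 in *Parp14*+/+ cells without and with PJ34, against 83 and 72 in *Parp14*-/- cells. That of the 2 Th1 genes was 50 and 42, against 42 and 33. The part of these marker levels in the receptor values was not tested. In bulk chromatin, fewer cells of a type and less polymerase per cell cannot be told apart. Heights below carry a 95% exact Poisson interval and ratios a 95% exact binomial (Clopper-Pearson) interval of the summed heights. Both cover counting error only, since there were no replicates, and no p-value is given.

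*Il4ra* and *Il2ra* had the highest values of the group. *Il4ra* had heights of 132 (110 to 157) in untreated and 110 (90.4 to 133) in PJ34-treated *Parp14*+/+ cells, and 160 (136 to 187) and 130 (109 to 154) in untreated and treated *Parp14*-/- cells. *Il2ra*, the IL-2 receptor α chain that marks activated T cells, had 112 (92.2 to 135), 138 (116 to 163), 145 (122 to 171) and 112 (92.2 to 135) in the same order. In every library both genes were above at least 99.7% of the genes with an interval. Next came *Il2rb*, the β chain shared by the IL-2 and IL-15 receptors, with 51, 50, 56 and 47, followed by *Il7r* with 47, 42, 62 and 34 and *Il21r* with 35, 31, 44 and 36. *Il2rg* had 24, 19, 15 and 13 and *Il12rb1* 16, 11, 10 and 11. The genes of the IL-1 receptor family came last in *Parp14*+/+. The heights, in the order of libraries given for *Il4ra*, were 6.67, 10, 11.67 and 11.33 at *Il18rap*, 6, 8, 12 and 9 at *Il1rl1*, and 5, 6.5, 8 and 7.5 at *Il18r1*. The interval of the lower gene of the leading pair and that of the next gene in the order, *Il2rb* or, in *Parp14*-/-, *Il7r*, did not overlap in any library. Below that, neighbours in the order overlapped, except for *Il21r* above *Il2rg* in *Parp14*-/- and *Il7r* above *Il2rg* in *Parp14*-/- + PJ34. A height is the pile-up at 1 point and is not divided by length, and the regions behind it run from 4.0 kb (*Il1rl1*) to 100.4 kb (*Il2ra*), so this order is not an order of expression.

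**Figure D1:**
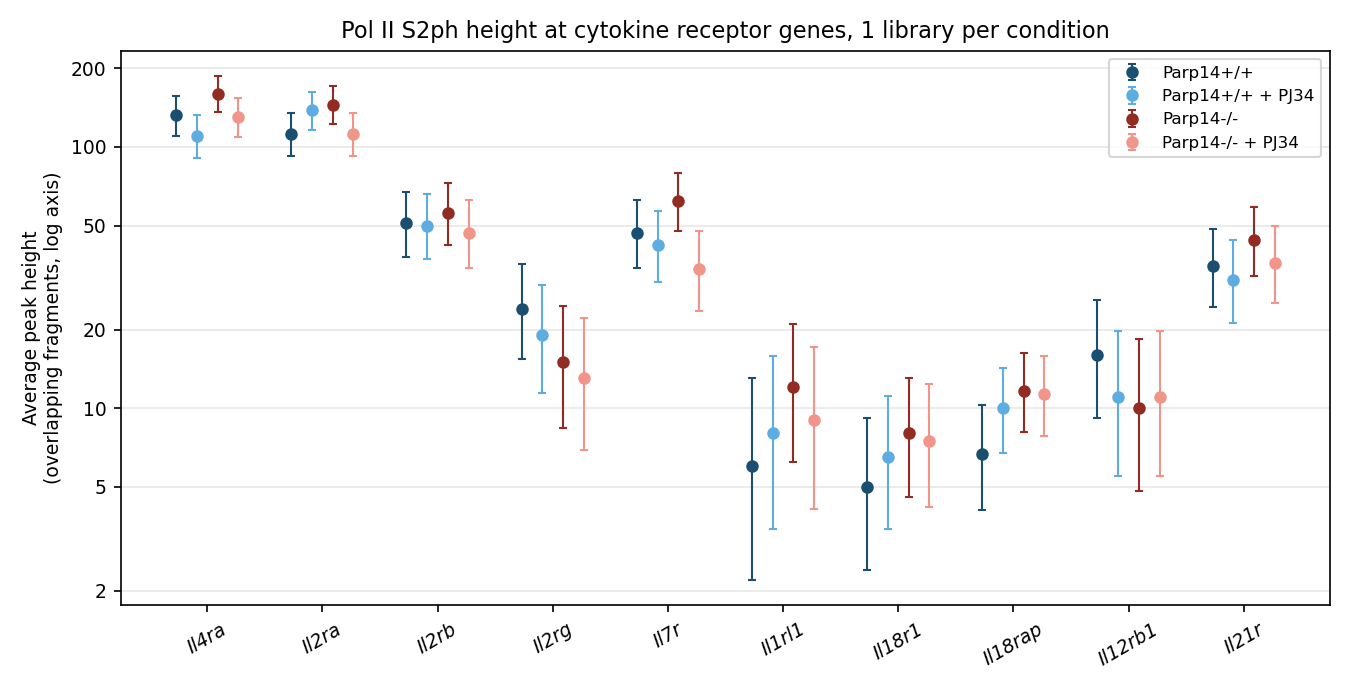
Average peak height (overlapping fragments, log axis) of each receptor gene in the 4 libraries, with bars for the 95% exact Poisson interval, which covers counting error only. *Il4ra* and *Il2ra* sit between 110 and 160 in every library, and the genes of the IL-1 receptor family between 5 and 12.

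*Il4ra* (gene identifier 16190, chr7:132695796-132722988, plus strand) was covered by 1 interval over its whole length in all 4 libraries. The intervals were 43350 to 46050 bp long, ran past the 3′ end, and no other gene is annotated in the active region of 46.4 kb. The highest points lay 724 to 852 bp past the end of the gene in all 4 libraries, within the TG repeats shown above. In a window of 129 bases centred on each point, the share of G plus T was 83.7%, 69.0%, 76.7% and 79.8% in the order used above, where the median over all intervals of a library, taking the strand richer in G plus T, was 54.3%. At least 98.7% of the highest points of a library had a lower share. The part of this sequence in the height of *Il4ra* was not tested. Between the genotypes the ratio was 0.825 (0.65 to 1.05) without PJ34 and 0.846 (0.65 to 1.1) with it. *Parp14*+/+ to *Parp14*+/+ + PJ34 gave 1.2 (0.925 to 1.56), and *Parp14*-/- to *Parp14*-/- + PJ34 gave 1.23 (0.97 to 1.56). Thus *Parp14*-/- was the highest library and *Parp14*+/+ + PJ34 the lowest, and each of these intervals includes 1. Among other cytokine receptors, the patterns nearest to that of *Il4ra* were those of *Tgfbr1*, *Tnfrsf1b* and *Il1r2*. Their distances were 0.36, 0.38 and 0.39 over the 3 log2 ratios to *Parp14*+/+, and their heights were between 6.6 and 14.25. These patterns differed from it in part. *Il1r2* was nearly flat, at 9.5, 9.5, 9.5 and 9. *Tgfbr1* and *Tnfrsf1b* were, like *Il4ra*, highest in untreated *Parp14*-/- cells (9 and 14.25) and lower there with PJ34 (6.6 and 11.5). Their untreated genotype ratios were 0.778 (0.485 to 1.24) and 0.772 (0.509 to 1.16). *Tgfbr1* (7 and 7.4) and *Tnfrsf1b* (11 and 11.75) were slightly higher with PJ34 in *Parp14*+/+, where *Il4ra* was lower.

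*Il2ra* (16184, chr2:11564477-11614818, plus strand) shares its active region with *Il15ra*, which encodes the α chain of the IL-15 receptor and starts 12345 bp past the end of *Il2ra*, and the table gives both genes the same 4 values. In *Parp14*+/+ the highest point lay 2.2 kb past the end of *Il2ra*, between the genes. In the other 3 libraries it lay 12.5 to 12.7 kb past the end, inside *Il15ra*. The heights of *Parp14*+/+ and of the other 3 libraries are therefore those of different places. The untreated *Parp14*+/+ to *Parp14*-/- ratio was 0.772 (0.598 to 0.995), an interval that leaves out 1. The treated pair gave 1.23 (0.953 to 1.6). With PJ34 the value was higher in *Parp14*+/+ (ratio 0.812, 0.627 to 1.05) and lower in *Parp14*-/- (ratio 1.29, with an interval from just above 1 to 1.67). Whether *Il2ra* or *Il15ra* accounts for these ratios cannot be told apart in the gene table.

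*Il2rb* (16185, chr15:78310978-78325452, minus strand) varied least of the 10 genes. Its 4 heights, from 47 to 56, gave ratios from 0.911 (0.611 to 1.36) for the untreated genotypes to 1.19 (0.794 to 1.79) for PJ34 in *Parp14*-/-. The highest point lay 1.6 to 2.3 kb past the 3′ end in 3 libraries and in an intron 1.1 kb from the start in *Parp14*-/- + PJ34. *Il21r* (60504, chr7:132746991-132777084, plus strand), which lies 24003 bp past *Il4ra*, had its highest points 1.3 to 3.5 kb past its end. Its active region of 68.4 kb also reaches into *Gtf3c1*, which lies 7384 bp past the end of *Il21r*. The highest points lay between these genes, and which gene they belong to cannot be told apart. The *Il21r* ratios were 0.795 (0.495 to 1.27), 0.861 (0.515 to 1.43), 1.13 (0.676 to 1.89) and 1.22 (0.769 to 1.95) for untreated genotypes, treated genotypes, PJ34 in *Parp14*+/+ and PJ34 in *Parp14*-/-. The order of its 4 libraries was that of *Il4ra* except at *Parp14*+/+ and *Parp14*-/- + PJ34, which stood at 35 and 36. A second interval over the first part of *Il21r* was called apart from the main one in the libraries without PJ34, with a height of 12 in *Parp14*+/+ and 21 in *Parp14*-/-.

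*Il7r* (16197, chr15:9435914-9459613, minus strand), which encodes the α chain of the IL-7 receptor and of the TSLP receptor, held the only call whose counting interval left out 1. Without PJ34 its height was 47 (34.5 to 62.5) in *Parp14*+/+ and 62 (47.5 to 79.5) in *Parp14*-/-. With PJ34 the heights were 42 (30.3 to 56.8) and 34 (23.5 to 47.5), so *Parp14*-/- went from the highest library to the lowest. In *Parp14*-/- cells the ratio without to with PJ34 was 1.82 (1.18 to 2.86), above the limit of 1.4 used here for each comparison. In *Parp14*+/+ the ratio was 1.12 (0.722 to 1.74). The genotypes compared at 0.758 (0.508 to 1.13) without and 1.24 (0.767 to 2) with PJ34. Intervals covered the whole gene in each library, and the highest points lay in an intron 0.3 to 1.3 kb from the start, unlike the points past the 3′ end at *Il4ra* and *Il2ra*. The neighbour *Capsl*, 40124 bp away, had heights of 22 and 19 in *Parp14*+/+ cells without and with PJ34, and 27 and 16 in *Parp14*-/- cells, so the libraries ranked as at *Il7r*. Its part in the *Il7r* values was not tested.

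The value the table gives to *Il2rg* (16186, chrX:98459726-98463545, minus strand) was measured outside *Il2rg* in each library. Its active region of 22.4 kb also holds *Gm614* and *Foxo4*, which encodes a forkhead transcription factor. In *Parp14*+/+ and *Parp14*-/- the highest points, 24 and 15, lay within *Foxo4*, 9.8 and 9.1 kb past the end of *Il2rg*, and in *Parp14*+/+ + PJ34 the point of 19 lay 9.9 kb past the end, within no annotated gene. In *Parp14*-/- + PJ34 the highest point, 13, lay 2.8 kb past the end, within *Gm614*. The ratio of 1.6 (0.806 to 3.28) between the untreated genotypes, and that of 1.46 (0.685 to 3.22) between the treated ones, thus compare heights at and beside these neighbours. Intervals nearer to *Il2rg* had a height of 10 in *Parp14*+/+ + PJ34, and 11 and 12 in *Parp14*-/-, the last at an exon of *Il2rg* 121 bp from its start. In *Parp14*+/+ and *Parp14*-/- + PJ34, 1 long interval covered the whole gene and its neighbours and gives no separate height for *Il2rg*. The gene was covered over 100%, 50.4%, 60.7% and 100% of its length in the same order of libraries. A difference in the common γ chain gene itself was not measured by these heights.

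The genes of the IL-1 receptor family had low signal that was lowest in *Parp14*+/+ and highest in *Parp14*-/-. *Il18rap* (16174, chr1:40572208-40606150, plus strand) had 3 active regions, with heights that summed to 20 in untreated *Parp14*+/+ cells, and to 30, 35 and 34 in the other libraries, in the order used above. The untreated genotype ratio was 0.572 (0.313 to 1.02), the treated 0.883 (0.522 to 1.49), and that of *Parp14*+/+ to *Parp14*+/+ + PJ34 0.667 (0.359 to 1.21), while PJ34 in *Parp14*-/- gave 1.03 (0.624 to 1.7). Each of these ratio intervals includes 1. The SICER intervals over the gene also varied between the libraries. In *Parp14*+/+ a single interval of height 9, with its highest point in an intron, left the start of the gene uncovered. In *Parp14*-/- and *Parp14*-/- + PJ34 an interval of height 10 or 11 spanned the start and a second, of height 22 or 21, covered the middle of the gene, with highest points 19.2 and 20.6 kb from the start. In *Parp14*+/+ + PJ34 the gene held 4 intervals of heights 10, 8, 12 and 8. The covered share of the gene was 47.7%, 61.1%, 73.6% and 72.3% in the usual order of libraries.

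*Il18r1* (16182, chr1:40522851-40557678, plus strand) begins 594 bp past the end of *Il1rl1*, and both genes share an active region of 4.0 kb at the start of *Il18r1*. The heights of that region, 6, 8, 12 and 9, are the whole of the *Il1rl1* value, and the highest points lay 463 to 2399 bp past the end of *Il1rl1* (17082, chr1:40496607-40522257), in each case within the annotated *Il18r1*. Intervals covered 1.98%, 0.222%, 0% and 3.15% of *Il1rl1*, so the body of the IL-33 receptor gene lay under no interval apart from its last bases. A second region, 1.8 kb long and just past the 3′ end of *Il18r1*, held an interval in the PJ34-treated libraries, with heights of 5 and 6. The untreated genotype ratio was 0.5 (0.154 to 1.44) for *Il1rl1* and 0.625 (0.254 to 1.46) for *Il18r1*, and the treated ratios were 0.889 (0.298 to 2.6) and 0.867 (0.38 to 1.95). At heights of 5 to 12 these intervals are wide, and a difference was not detectable at this depth. In *Parp14*-/- the highest point of 12 lay within 64 bases of a TG run of 24 bases, and 0.841% of the highest points of that library had a run of at least 20 bases that near. The *Il4ra* points did not reach that limit, with longest runs of 16, 12, 12 and 16 bases in the usual order of libraries.

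*Il12rb1* (16161, chr8:73332393-73345321, plus strand) went the other way. Its height was 16 (9.15 to 26) in untreated *Parp14*+/+ cells, above 10 (4.8 to 18.4) in untreated *Parp14*-/- cells and 11 (5.49 to 19.7) in both treated libraries. The genotypes gave a ratio of 1.6 (0.683 to 3.94) without PJ34, and *Parp14*+/+ without to with PJ34 gave 1.45 (0.634 to 3.47). The treated pair stood at 1 (0.393 to 2.54) and PJ34 in *Parp14*-/- at 0.909 (0.346 to 2.36). The covered length differed more than the height. Intervals lay over 93.8% and 36.9% of the gene in *Parp14*+/+ cells without and with PJ34, and over 10.2% and 11.4% in *Parp14*-/- cells, so that the body of the gene was covered in *Parp14*+/+ and the other libraries kept mainly its 3′ part. The covered length was 12121 bp in *Parp14*+/+ against 1321 bp in *Parp14*-/-, a ratio of 9.18, above that of 96.3% of the 4614 genes covered in both libraries, whose median ratio was 1.13. In the treated pair the ratio was 3.24, above 89.3% of 4353 genes (median 1.03). A covered length has no counting interval here. It falls where a stretch drops below the limit of SICER, and the *Parp14*-/- library covered less of the genome altogether. The highest points moved from 183 bp past the end in *Parp14*+/+ to 3079 bp past it in *Parp14*-/-.

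**Figure D2:**
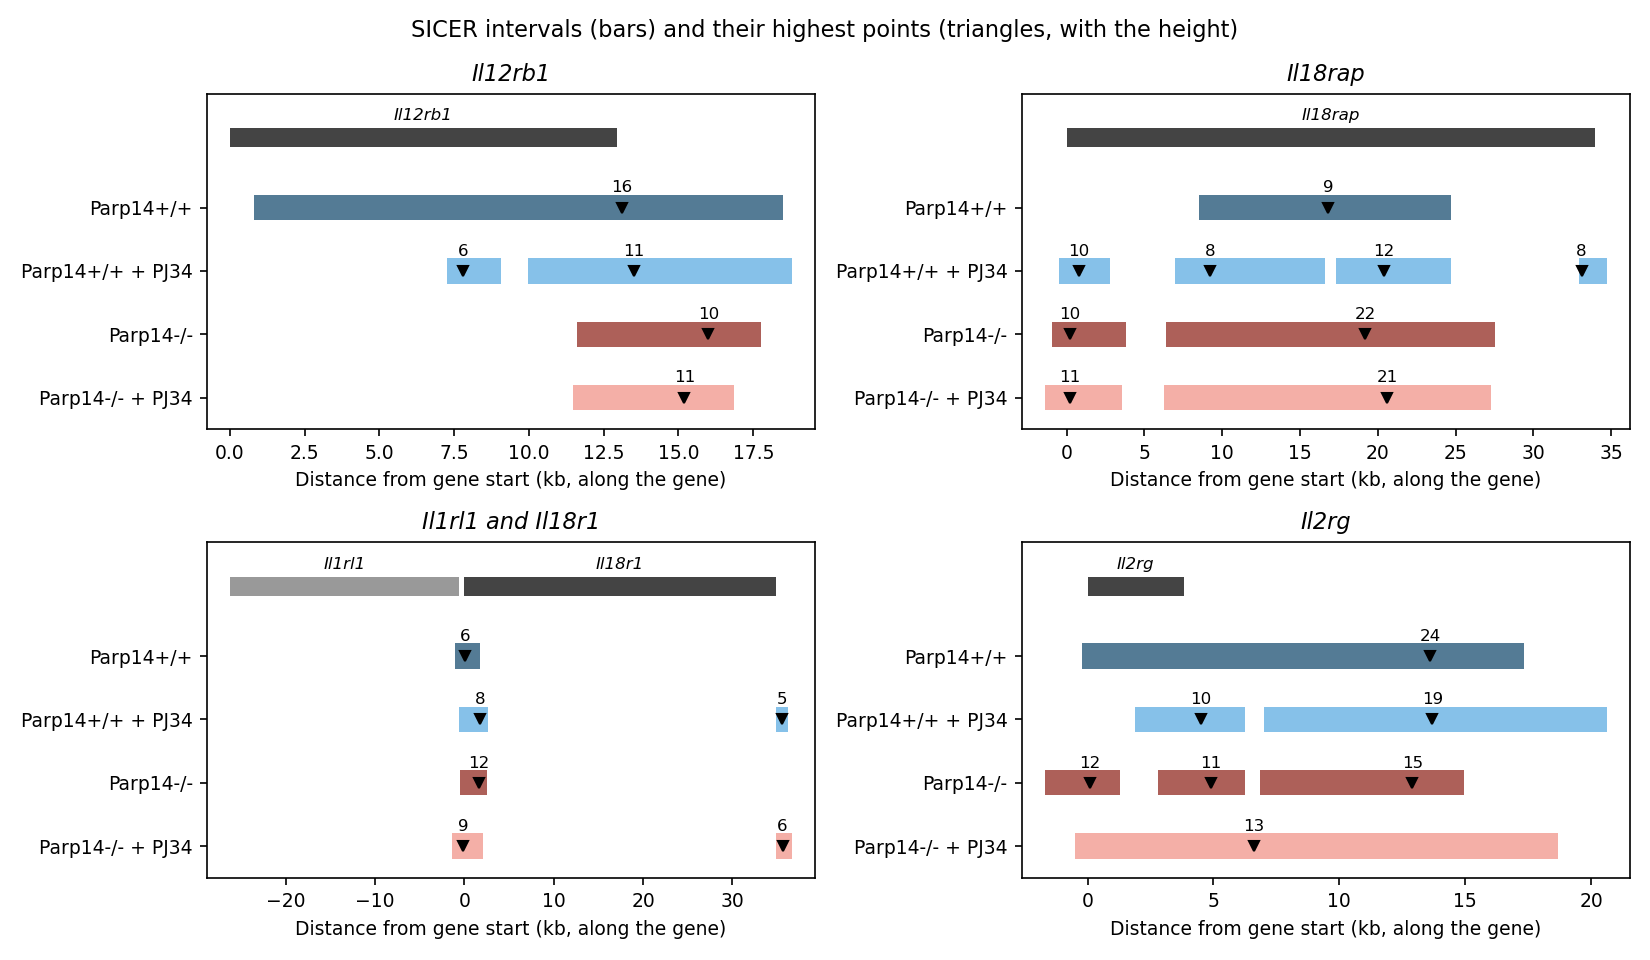
SICER intervals (bars, coloured by library) along *Il12rb1*, *Il18rap*, the *Il1rl1* and *Il18r1* pair and *Il2rg*, by distance from the gene start in kb (for the pair, from the start of *Il18r1*), with a triangle and a number for the highest point and its height. The *Il12rb1* interval spans nearly the whole gene in *Parp14*+/+ and the 3′ part in the other libraries, and the points of 24, 19 and 15 on the *Il2rg* map lie over 9 kb past that gene.

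**Figure D3:**
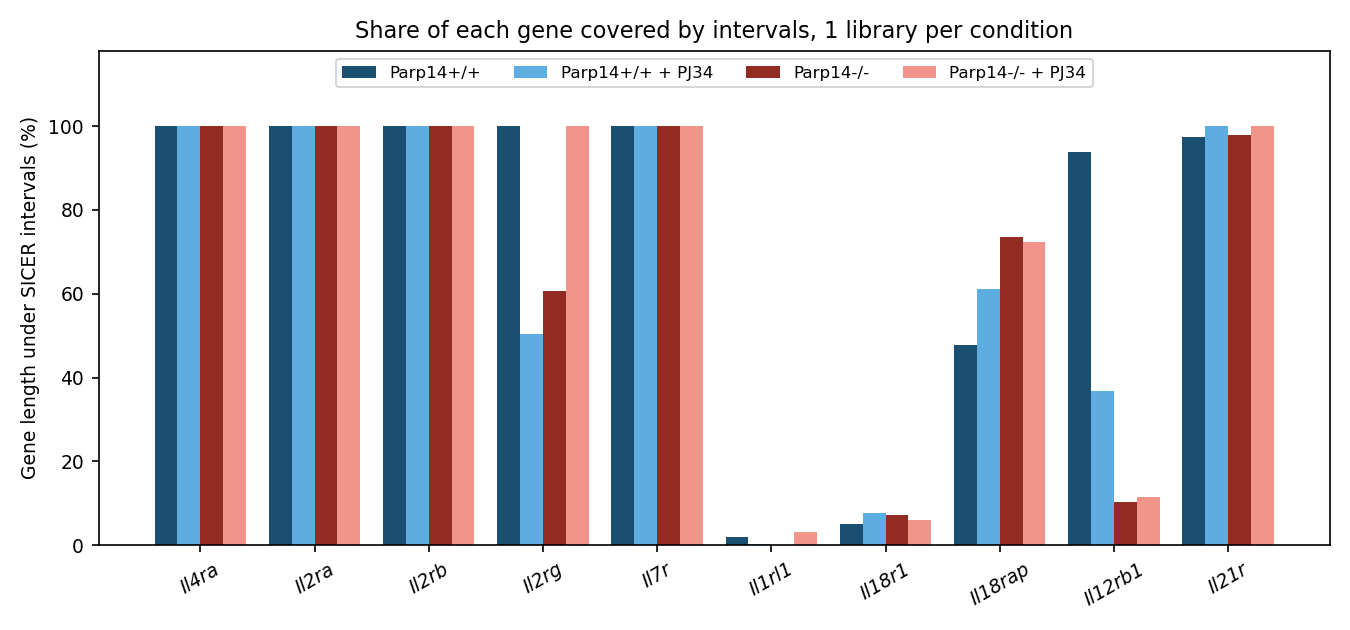
Share of each receptor gene (%) that lies under SICER intervals in the 4 libraries, as bars from 0. The 4 genes *Il4ra*, *Il2ra*, *Il2rb* and *Il7r* stand at 100% in each library, and *Il12rb1* falls from 93.8% in *Parp14*+/+ to 10.2% in *Parp14*-/-.

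To compare the genotypes, a gene was called where the ratio was above 1.4 or below 0.7, and the higher library of the pair had a SICER interval there. These limits are the first tier of the genotype rule of the study and were applied here to all 4 comparisons. The study also took ratios nearer to 1 for genes of high signal. With such a tier added, for heights above 11, 9 of the 10 receptor genes were called, 2 higher and 7 lower. Of all genes 36.6% were called, a share not split by direction. Genes of low height cannot enter this tier. Those it added, *Il4ra*, *Il2ra*, *Il7r* and *Il21r*, were above at least 94.5% of genes with an interval in *Parp14*+/+. The count and the share are therefore not alike in height. Between *Parp14*+/+ and *Parp14*-/-, 2 of the 10 receptor genes were called higher in *Parp14*+/+ (*Il2rg* and *Il12rb1*), where 12.2% of 7723 genes with an interval in either library were, and 3 were called lower (*Il1rl1*, *Il18r1* and *Il18rap*), where 9.96% were. With *Il1rl1* and *Il18r1* sharing a region and *Il2rg* read at its neighbours, the 5 calls stand for fewer separate measurements. The ratio was below 1 for 8 of 10 receptor genes and for 42.6% of all genes, with medians of 0.784 and 1. The 8 include *Il1rl1* and *Il18r1*, and *Il2ra*, whose heights were those of different places. An interval that leaves out 1 was found for *Il2ra* alone, where 3.31% of all genes had one. Among 16 other cytokine receptors with an interval, 0 were called higher and 2 lower, with a median of 0.888. These 16 include *Il15ra*, which has the values of *Il2ra*. Of the 11 with an interval in both untreated libraries, the lowest and highest ratios were those of *Il10ra*, an IL-10 receptor chain (heights of 19 and 31, ratio 0.613) and *Il17ra*, an IL-17 receptor chain (10.5 and 8, ratio 1.31). *Ifngr1*, an IFN-γ receptor chain with no interval in *Parp14*+/+ and named after its values were seen, was lower, at 0.501 (0.243 to 0.982). Among 22 genes of receptor signalling, 1 was called higher and 4 lower (median 0.973). Of the 20 with an interval in both untreated libraries, the lowest was *Stat2* (0.611), which transmits interferon signals, and the highest *Ptpn6* (1.48), a phosphatase that restrains receptor signals. Among 5 ligand genes, 3 were called higher and 1 lower, with a median of 1.87. *Il13*, the Th2 cytokine, had the highest ratio of those with an interval in both libraries, 2.24 (1.23 to 4.22), and *Il23a*, a subunit of IL-23, the lowest, 0.611, with the values of *Stat2*. *Il5*, with no interval in *Parp14*-/- and also named after its values were seen, was higher, at 5.25 (1.77 to 21, heights of 21 and 4).

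In the PJ34-treated genotypes, 1 receptor gene was called higher in *Parp14*+/+ + PJ34 (*Il2rg*), where 22.3% of 7577 genes were, and 0 were called lower, where 5.17% were. The median ratio was 0.944 for the receptor genes and 1.15 for all genes. The ratio of this pair was above 1 for 65.2% of all genes and below 1 for 28%. A factor of 1.1 (0.14 on the log2 scale) sets the median gene of *Parp14*-/- + PJ34 level with *Parp14*+/+, and one of 0.958 (-0.06) that of *Parp14*+/+ + PJ34. With ratios divided by the median of all genes, 12.5% of genes would be called higher and 10.8% lower, and the *Il2rg* call is lost when libraries are scaled. Relative to that median, 3 receptor genes stood above (*Il2ra*, *Il2rg* and *Il7r*) and 7 below. None of the 10 intervals left out 1, where 3.81% of all genes had such an interval.

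Treatment with PJ34 was compared within each genotype. In *Parp14*+/+, *Il12rb1* was called higher without PJ34, where 6.69% of 7971 genes were, and *Il18rap* was called lower without PJ34, where 9.90% were. Divided by the median ratio, these shares of all genes would be 9.02% and 8.52%. The median ratio was 1.07 against 0.96 over all genes, and no interval left out 1, where 1.63% of all genes had such an interval. In *Parp14*-/-, *Il7r* was called higher without PJ34, where 14.2% of 6861 genes were, and 0 genes were called lower, where 5% were. Divided by the median ratio, the shares of all genes would be 8.67% and 8.22%, and *Il7r* is still called when libraries are scaled. Here the ratio was above 1 for 9 of 10 receptor genes and for 59.5% of all genes. The median was 1.21 against 1.09 over all genes. Relative to that median, 7 stood above and *Il18r1*, *Il18rap* and *Il12rb1* below. The intervals of *Il7r* and *Il2ra* left out 1, where 1.95% of all genes had such an interval. That of *Il2ra* began just above 1, and both of its highest points lay inside *Il15ra*. With libraries scaled its ratio was 1.18, for which no interval was computed. The 4 comparisons share libraries in pairs, so their values are not independent of each other.

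**Figure D4:**
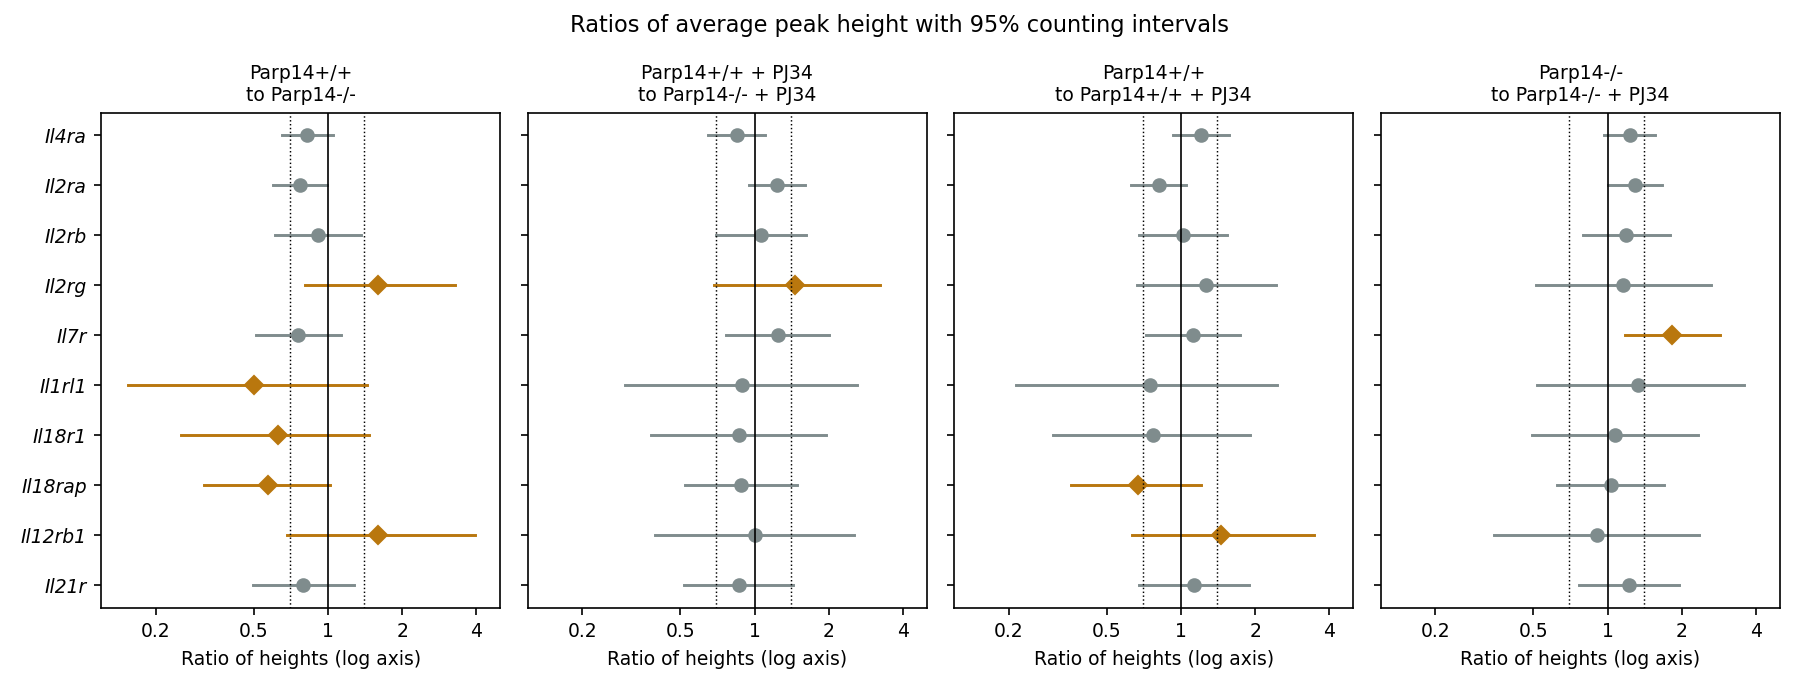
Ratio of average peak heights (log axis) for each receptor gene in the 4 comparisons, with lines for the 95% counting interval, diamonds for genes called above 1.4 or below 0.7 (dotted lines) and circles for the others. Only the *Il7r* call in *Parp14*-/- to *Parp14*-/- + PJ34, at 1.82, has an interval that leaves out 1.

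The place of the highest point was read for all genes with an interval. In *Parp14*+/+ it lay past the 3′ end at 7 of the 10 receptor genes and within the gene at 3, and over all genes it lay past the 3′ end at 49.5% of 7108. In *Parp14*-/- it lay past the end at the same 7 receptor genes, against 43.7% of 6120 genes. The 3 with a point within the gene in both libraries were *Il7r*, *Il18r1* and *Il18rap*. At 5 of the 7, *Il4ra*, *Il2rb*, *Il21r*, *Il12rb1* and *Il2ra* in *Parp14*+/+, the point lay at most 2.2 kb from the gene end, and at *Il2rg* and *Il1rl1* it lay in or near a neighbour.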

How the data were processed

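Th2 chromatin bound by RNA Polymerase II phosphorylated on serine 2 was sequenced, with 1 library per condition. The authors mapped the reads to mm9, removed duplicates, equalised the number of alignments and ran SICER, with the Input as control, to find enriched intervals. The authors deposited, for each library, the intervals with the coverage signal at their highest points and, for 11608 genes, a signal per gene as an average peak height. Equal numbers of alignments remove differences in depth, while summed heights still differed between libraries. A further 8 columns of the table, with values of other libraries, were not used. Heights were used as deposited. The number of active regions of a gene equalled the number found from 2500 bp before its start to 5000 bp after its end for 11604 genes, and heights multiplied by it were whole (within 0.0051 per region) for at least 99.74% of genes. The tolerance reflects the rounding of the table to 2 decimals.

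Ratios were taken with no pseudocount, the limits were 1.4 and 0.7, and intervals were computed with SciPy 1.17.1 in Python 3.11.15. The script was tested on simulated data. Genes named besides the receptors were fixed by rule: the ends of each list by untreated ratio among genes with an interval in both untreated libraries, direct neighbours within 100 kb, and the 3 receptors nearest to *Il4ra*. Outside this rule, *Ifngr1* and *Il5* were named after their values were seen. Receptor genes and lists were chosen with earlier results of these data known. The search for TG repeats, the place of highest points and the covered length against all genes were added after values had been seen. Alternatives covered the scaling, the measure of signal, the limits and the filters.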

Additional observations from a re-analysis of the deposited data

Results flagged for a closer look

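With heights as deposited, the direction of a ratio turned between the genotypes or with PJ34 for 8 of the receptor comparisons. With 1 library per condition, none of these differences was tested. The ratio without to with PJ34 was 0.812 in *Parp14*+/+ and 1.29 in *Parp14*-/- at *Il2ra*, whose highest points lay in different places. At *Il1rl1* and *Il18r1*, which share a region, it was 0.75 and 1.33, and 0.769 and 1.07. At *Il18rap* it was 0.667 and 1.03, and at *Il12rb1* 1.45 and 0.909. The *Parp14*+/+ to *Parp14*-/- ratio was 0.772 without and 1.23 with PJ34 at *Il2ra*, 0.911 and 1.06 at *Il2rb*, and 0.758 and 1.24 at *Il7r*. Each of these intervals includes 1, except those of *Il2ra* between the untreated genotypes and for PJ34 in *Parp14*-/-. With libraries scaled to a median ratio of 1, the PJ34 ratio no longer turned at *Il18r1* (0.803 and 0.97) or *Il18rap* (0.696 and 0.936). Nor did the genotype ratio at *Il2rb* (0.911 and 0.927). The others still turned.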

How the results depend on the processing

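There were no replicates, so no replicate could be left out. No paired analysis was possible because the groups hold 1 library each. The counts of called receptor genes were 5 between the untreated genotypes, 1 between the treated genotypes, 2 for PJ34 in *Parp14*+/+ and 1 for PJ34 in *Parp14*-/-. A second tier took ratios from 1.2 to 1.4 or from 0.7 to 0.83 where a height passed 11, so genes of low height cannot enter it. Its height limit was set here because that of the study is on another scale. With that tier the counts were 9, 3, 5 and 5 in the same order, where 36.6%, 41.0%, 30.7% and 33.4% of all genes were called. With limits of 2 and 0.5 they were 0, 0, 0 and 0, where 2.72%, 3.92%, 2.07% and 1.87% were. With a summed height of at least 50 the first 3 were 0, 0 and 0, where 1.53%, 2.03% and 0.853% of all genes were called. With intervals required over 50% or more of a gene the untreated count was 3, where 7.79% of all genes were called. Scaled to a median ratio of 1, the treated count was 0, where 23.3% were. By the covered length of the gene the treated count was 3 and the PJ34 counts were 4 and 2, where 55.9%, 50.9% and 51.2% of all genes were called. Of these, 1, 3 and 0 were called above and 2, 1 and 2 below. The untreated count was 4, with 3 above and 1 below, where 56.5% were called. By the highest point of an interval over the gene the treated count stayed at 1, but below instead of above, where 18.6% were called. That for PJ34 in *Parp14*+/+ stayed at 2, both above, where 14.5% were called. These shares were not split by direction. By the highest point within the gene or its margins, an alternative chosen after seeing the data, the count for PJ34 in *Parp14*+/+ was 1, where 14.8% of all genes were called. The treated ratio of *Il2rg* turned, to 0.769 by the highest point of an interval over the gene, to 0.769 within the margins and to 0.504 by covered length. By height these compare 10 in *Parp14*+/+ + PJ34, from an interval apart from that of 19, with 13 in *Parp14*-/- + PJ34. The latter was 1 long interval over the gene and its neighbours. The covered lengths were 1925 and 3820 bp. No ratio of covered length was available for *Il1rl1* where no interval overlapped it. Counting intervals are wide at low heights, and no ratio of *Il1rl1*, *Il18r1*, *Il18rap* or *Il12rb1* had an interval that left out 1. Nor did any ratio of *Il4ra*, *Il2rb*, *Il2rg* or *Il21r*, so this does not set the low genes apart.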
